A study of Rattus norvegicus with 18 samples.

Results

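Dorsal root ganglion (DRG) transcripts were compared along a scale of surgery with 3 levels, from no procedure through a skin incision to a knee replacement. All 18 libraries of the series were used, 6 from naive rats, 6 from sham rats and 6 from total knee arthroplasty (TKA) rats. Each transcript was given a single linear trend on its raw counts, with the codes 0 for naive, 1 for sham and 2 for TKA. Transcripts that stepped up or down in both intervals were then set apart from those that differed in TKA rats alone.

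All rats were Sprague Dawley rats of about 300 g, and each group had 3 rats labelled male and 3 labelled female. Naive rats had no procedure. Sham rats were anesthetized, had the skin over the left knee opened and were sutured, and TKA rats were anesthetized and had the whole replacement on the left knee. Left lumbar DRGs were taken 24 h after surgery, and each library was made from a separate rat. Naive rats had neither anesthesia nor wound, so the first interval holds both, and the spacing of the codes is a convention rather than a measured dose.

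A DRG holds the cell bodies of the sensory neurons that supply the limb, wrapped by satellite glia and surrounded by Schwann cells, vessels, fibroblasts and macrophages. After tissue damage, sensory neurons change their output of secreted peptides and chemokines, and cells throughout the ganglion respond to cytokines such as interleukin-1 and interleukin-6 through NF-kB, STAT3 and C/EBP transcription factors. In libraries made from whole ganglia, fewer cells of a type and less RNA per cell cannot be told apart.

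Library totals ran from 20230562 to 29343899 counts. Of 41078 transcripts in the table, 26197 had a count in some rat and 16048 passed the filter on low counts. TKA rat 2 stood apart. It had 9035 CPM (counts scaled to a common library size) summed over 5 skeletal muscle markers, against at most 967 in the other TKA rats and 26.0 to 272 in naive rats, and it was the highest of all 18 rats in 23.9% of the tested transcripts. Myelinating Schwann cell markers summed to 95714 CPM in TKA rat 2 and 53926 in TKA rat 6, against 10783 to 18468 in the other 4 TKA rats. Sensory neuron markers summed to 17541 and 21972 CPM in those rats, against 29151 to 39738 in the other 4. TKA rat 4, labelled female, carried 3472 counts from male-specific transcripts. TKA rat 2, labelled male, carried 122 counts from female-specific transcripts, against at most 2 in the other rats with male counts.

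Of the 16048 transcripts tested with edgeR, 209 were called by the graded trend (1.3%), 190 of them higher and 19 lower with more surgery (1.18% and 0.118%). DESeq2 called 664, 563 higher and 101 lower, and codes of 0, 1, 3 and of 0, 2, 3 gave 469 and 6 calls by edgeR. A call needed a fitted fold of at least 1.5 from naive to TKA and a Benjamini-Hochberg adjusted p under 0.05 in the quasi-likelihood test of edgeR, which 272 transcripts passed at any fold (1.69%). A coding in which only TKA differed called 359 transcripts (2.24%), 319 higher and 40 lower (1.99% and 0.249%). A coding in which sham and TKA rats shared a level called 0, with 1308 transcripts at an unadjusted p under 0.05 (8.15%) and 15 calls by DESeq2. Both of the first codings used the same 18 rats and called 159 transcripts together, which was 76.1% of the graded list and 44.3% of the TKA-only list.

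Fitted with a mean for each group, the second step passed the test in 13 transcripts and the first in 0 by edgeR. Sham minus naive gave 0 transcripts at an adjusted p under 0.05 by edgeR, 285 at an unadjusted p under 0.05 (1.78%), of which 179 were higher and 106 lower (1.12% and 0.661%), and 4 calls by DESeq2. All groups share a single estimate of the spread in this fit. The unadjusted share was 3.21% without TKA rat 2 and 4.18% without TKA rats 2 and 6. A first step that misses the threshold is therefore not a sign of no step. TKA minus sham gave 13 (0.081%), with 1931 at an unadjusted p under 0.05 (12%), 1302 higher and 629 lower (8.11% and 3.92%). DESeq2 gave 184 for that step, and the edgeR fits that left out a rat gave 0 to 26, with 0 without sham rat 1 or 5 or without TKA rat 1, 3 or 6, and 26 without TKA rat 5. The curvature, which is the second step minus the first, gave 0 at an adjusted p under 0.05, 405 unadjusted (2.52%) and 2 by DESeq2. The shapes described here therefore rest on unadjusted p values of the steps and the curvature.

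The 409 transcripts called in at least 1 coding (2.55%) were sorted by shape. The stepwise class needed both steps in the same direction, each at an unadjusted p under 0.05, and held 16 transcripts (0.0997%), all rising. The TKA-only class needed a second step, no first step at that p and a curvature at that p, and held 70 (0.436%), 54 higher and 16 lower. The plateau class, with a first step and no second, held 1 (0.00623%). The other 322 (2.01%), 290 of them higher, were undetermined. The steps share the sham rats, and the sorting used the counts that made the calls, so these counts are descriptions.

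**Figure D1:**
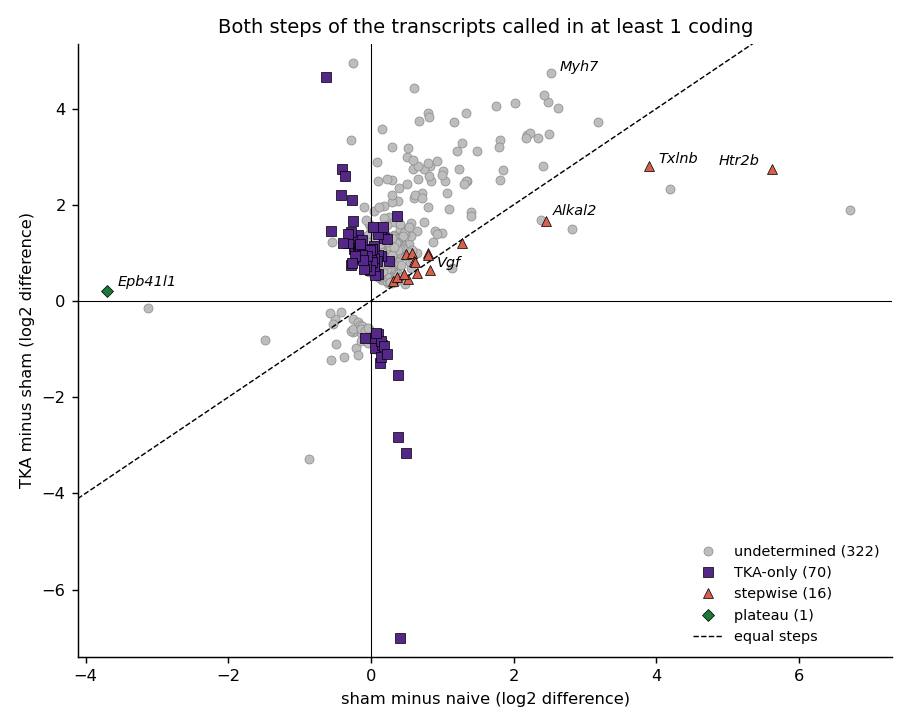
Scatter of the 409 transcripts called in at least 1 coding, with the log2 difference of sham minus naive on the x axis and of TKA minus sham on the y axis. The 16 stepwise transcripts (triangles) lie in the upper right on either side of the dashed line of equal steps, with *Htr2b* well below it. The 70 TKA-only transcripts (squares) lie along the vertical line at 0, and most of the 290 rising undetermined ones (circles) lie above the line of equal steps.

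In the 15 stepwise transcripts other than *Htr2b*, which had no count in naive rats, the fitted first step made up 33.4% to 59.4% of the log2 rise from naive to TKA, with a median of 45.3%. All 6 TKA rats lay above all 6 naive rats in 12 of the 16, and all TKA rats lay above all sham rats in 3 of the 16. No tested transcript kept the 3 groups free of overlap in a row, whether rising or falling. Over all tested transcripts, the TKA rats lay above all naive rats in 1.25%, the TKA rats above all sham rats in 0.436%, and the sham rats above all naive rats in 0.0748%, which was 12 transcripts. The stepwise transcripts had been selected for both steps on the same counts. Their separation and their share of the first step are therefore no separate support for the class.

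The lowest adjusted p of the class was that of *Cebpd*, which encodes the C/EBP-delta transcription factor of the acute-phase response. Naive rats ranged from 19.3 to 38.1 CPM with a median of 24.4, sham rats from 25.2 to 49.1 with a median of 33.8, and TKA rats from 61.4 to 88.7 with a median of 69.2. The TKA rats lay above every other rat, whereas 2 of the 6 sham rats lay above all naive rats. The slope was 0.74 ± 0.09 log2 units per level (SE), a fitted 2.78-fold rise over the scale, with an adjusted p of 0.000812 by edgeR. The exact rank trend test over rats (Jonckheere-Terpstra, two-sided) gave p = 1.62e-05. *Cebpd* had been selected on the same counts, so this p is no separate support.

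*Il1r1*, the signalling receptor for interleukin-1, was also stepwise. The naive rats had 3.07 to 5.70 CPM around a median of 4.02, the sham rats 5.30 to 7.13 around 6.27, and the TKA rats 7.69 to 19.1 around 12.3. The TKA and sham rats did not overlap, and 4 of the 6 sham rats lay above all naive rats. The slope was 0.79 ± 0.10 (adjusted p = 0.00169 by edgeR), and its exact rank trend p of 9.33e-07 was, with that of *Steap4*, the lowest of the 14570 transcripts without tied values. As for *Cebpd*, the rank trend p came from the counts that selected the transcript. *Nfkbiz*, an inducible cofactor of NF-kB downstream of interleukin-1, rose from a mean of 1.42 ± 0.45 CPM (SD, n = 6) through 2.47 ± 0.99 to 4.83 ± 2.02. Its slope of 0.88 ± 0.18 had an adjusted p of 0.0266 by edgeR, but it passed that threshold in 14 of the 18 fits that left out a rat, and was stepwise in 5 of them.

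Among secreted products of sensory neurons, *Vgf* and *Alkal2* were called, with a higher mean at each level of surgery. *Vgf* encodes a neuropeptide precursor that nerve growth factor induces. Its naive levels lay close together, from 28.1 to 33.8 CPM (median 28.9), sham rats ran from 30.5 to 67.5 (median 53.9), and TKA rats ran from 37.1 to 151 (median 98.6). The lowest TKA value, 37.1 CPM, was that of TKA rat 2, and the other 5 TKA rats lay above every sham rat. The slope was 0.90 ± 0.12 (adjusted p = 0.00213 by edgeR), and 0.98 ± 0.09 without TKA rat 2.

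*Alkal2* encodes a ligand of the receptor tyrosine kinases ALK and LTK. Naive rats had 0.299 to 4.16 CPM (median 1.60), and sham rats had 3.93 to 17.9 (median 9.11). TKA rat 2 had no count of it, while the other 5 TKA rats had 30.4 to 50.4 CPM and lay above every sham rat. The slope was 2.05 ± 0.38 (adjusted p = 0.0175 by edgeR), a fitted 17.1-fold rise. Without TKA rat 2 the slope was 2.19 ± 0.20 and the adjusted p 4.76e-06.

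*Ccl2*, the chemokine that draws monocytes, was not called over all 18 rats, with a slope of 0.83 ± 0.25 and an adjusted p of 0.0798 by edgeR. All 6 sham rats, at 15.3 to 32.5 CPM (median 22.5), lay above all 6 naive rats, at 9.10 to 14.1 (median 11.2). *Ccl2* was named for its high rank in the study's comparison of sham and naive rats, which used these same rats. Its first step is therefore no separate support. TKA rat 2 was at 0.521 CPM, below every other rat, and the other 5 TKA rats were at 30.5 to 57.2. Without TKA rat 2, *Ccl2* was stepwise, with a slope of 0.96 ± 0.10, an adjusted p of 9.39e-06 by edgeR, a first step of 0.99 and a second of 0.92. *Vgf*, *Alkal2* and *Ccl2* were all low in the library that was poorest in neuronal markers and richest in muscle and Schwann cell markers. The part of tissue content in those low values was not tested.

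**Figure D2:**
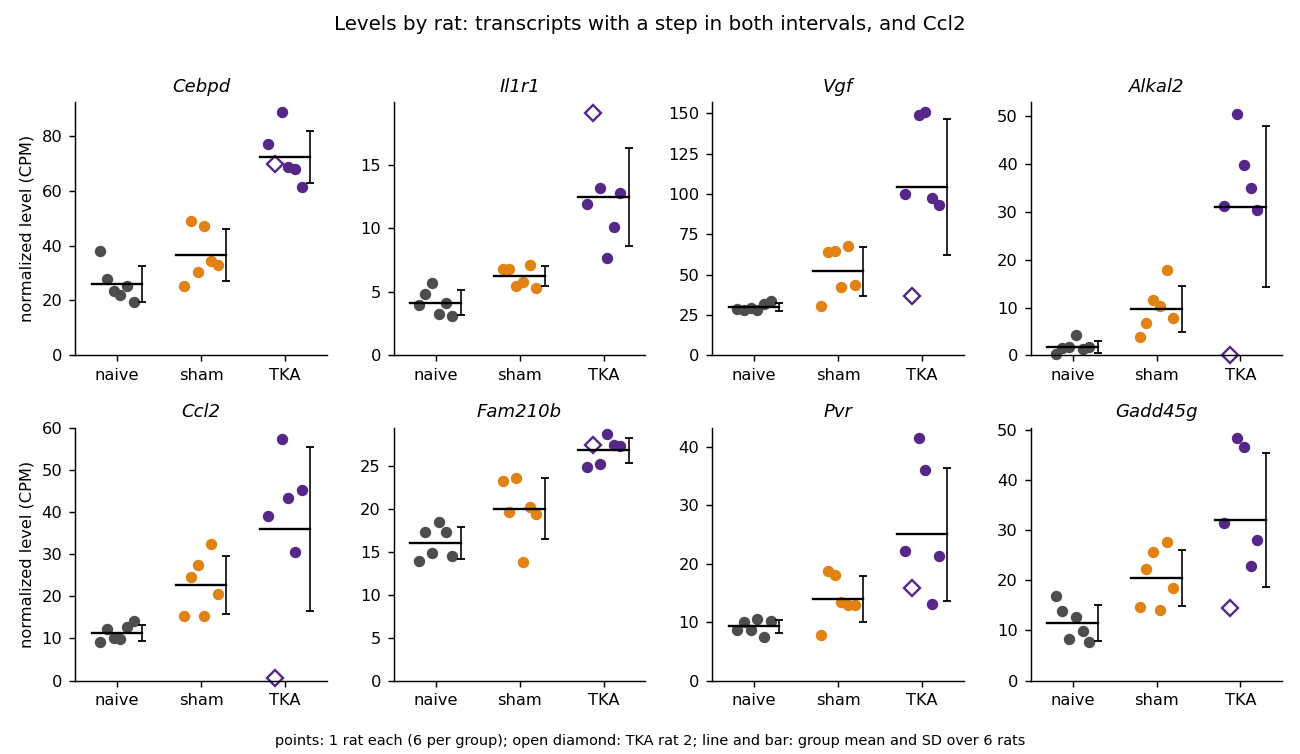
Normalized level in CPM on the y axis for each of the 18 rats, by group on the x axis, for 7 stepwise transcripts and *Ccl2*; lines and bars are the mean and SD of 6 rats, and open diamonds are TKA rat 2. *Cebpd*, *Il1r1* and *Fam210b* keep every TKA rat above every sham rat, and the open diamond is the lowest TKA value for *Vgf*, *Alkal2*, *Ccl2* and *Gadd45g*.

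*Htr2b*, the serotonin 2B receptor, had no count in any naive rat, 37 counts over 4 of the 6 sham rats and 266 over all 6 TKA rats. Set against a floor of 3 counts over the naive group, its pooled level was at least 11.6-fold higher in sham rats and at least 82.0-fold higher in TKA rats. TKA rats ranged from 0.871 to 3.93 CPM and overlapped with the highest sham rat at 0.875. Its adjusted p was 0.00508 by edgeR, and DESeq2 did not call it.

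Besides *Cebpd*, the class held the transcription factors *Nr4a2*, *Klf2* and *Bcl6*. *Nr4a2*, an orphan nuclear receptor induced by activity, had 4.06 to 5.68 CPM in the naive group around a median of 4.70, 5.37 to 8.47 in the sham group around 6.58, and 6.25 to 14.5 in the TKA group around 8.92. Its steps were nearly equal, at 0.51 ± 0.19 and 0.46 ± 0.19 log2 units, and the trend had an adjusted p of 0.0211 by edgeR. *Klf2*, a factor of endothelial cells and leukocytes, had means of 13.8, 21.4 and 32.0 CPM (slope 0.61 ± 0.13, adjusted p = 0.0314 by edgeR). *Bcl6*, a transcriptional repressor, had means of 30.9, 39.8 and 56.0 CPM (slope 0.43 ± 0.08, adjusted p = 0.0199 by edgeR). All 3 had every TKA rat above every naive rat and some TKA rats among the sham rats.

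Of the remaining members, *Fam210b*, which encodes a mitochondrial membrane protein, had the smallest slope, 0.37 ± 0.06 (adjusted p = 0.00739 by edgeR), on means of 16.0, 19.9 and 26.8 CPM. Its TKA rats, at 24.8 to 28.7 CPM, all lay above the sham rats, at 13.7 to 23.6. *Pvr*, the poliovirus receptor and an adhesion molecule of the nectin family, had means of 9.24, 14.0 and 25.0 CPM (slope 0.72 ± 0.12, adjusted p = 0.00984 by edgeR). *Gadd45g*, a stress-inducible growth arrest gene, had means of 11.6, 20.5 and 32.1 CPM (slope 0.73 ± 0.13, adjusted p = 0.0163 by edgeR). *Nos3*, the endothelial nitric oxide synthase, had a slope of 0.71 ± 0.14 (adjusted p = 0.0234 by edgeR) and its highest value, 41.4 CPM, in TKA rat 2. *Stx11*, *Smagp* and *Txlnb* completed the class and are named because their number is small. *Stx11* encodes a syntaxin of immune cells, and *Txlnb* is a muscle transcript whose highest value, 37.4 CPM, was again in TKA rat 2.

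Membership of the class was firm for few of these. *Cebpd*, *Il1r1*, *Vgf* and *Htr2b* were stepwise in all 18 fits that left out a rat, *Fam210b* in 17, *Alkal2* in 15, and *Pvr*, *Gadd45g* and *Nr4a2* in 14 each. *Cebpd*, *Il1r1* and *Vgf* were also called by the graded trend in all 12 alternative settings, whereas DESeq2 did not call *Htr2b*. *Bcl6* was stepwise in 10, *Nos3* in 6, *Nfkbiz*, *Stx11* and *Smagp* in 5 each, and *Klf2* in 4. *Txlnb* was stepwise in 7 and lost its call without TKA rat 2 (adjusted p = 0.146 by edgeR). Without TKA rat 2, 27 transcripts were stepwise, 13 of them shared with the 16. The newcomers with a symbol included *Ccl2*, *Jun*, *Tnfrsf1a*, *Reg3b* and *Gfap* among the risers and *Rem2*, *Ankrd35* and *Myh8* among the fallers. *Rem2*, a small GTPase of excitable cells, fell from a mean of 36.8 CPM in naive rats through 27.0 in sham rats to 18.1 in those 5 TKA rats, at a slope of -0.51 ± 0.08 (adjusted p = 0.0041 by edgeR). *Tnfrsf1a*, the main receptor of tumor necrosis factor, had means of 66.1, 79.1 and 110 CPM without that rat (slope 0.36 ± 0.06, adjusted p = 0.00362 by edgeR). These names were chosen after their values were seen.

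RefSeq promoters of assembly GRCr8 were matched by symbol for 13 of the 16 stepwise and 52 of the 70 TKA-only transcripts, and the 250 bases before the start were searched on both strands. The letters TGACGTCA, the palindrome of the cyclic AMP response element, stand in 1.59% of 33469 promoters and in those of 1 stepwise gene, *Vgf*, and 4 TKA-only genes. The letters GGNNTTTCC, the core of many NF-kB motifs, stand in 5.19% of promoters, in 3 of the 13 (*Nfkbiz*, *Nr4a2* and *Smagp*) and in 7 of the 52, *Nfkbia* and *Steap4* among them. CACGTG, an E-box, stands in 5.59% of promoters, in 3 of the 13 and in 6 of the 52. TGANTCA, the AP-1 motif, stands in 6.34%, in 0 of the 13 and in 1 of the 52, and TTCCNGGAA, a STAT motif, in 1.07%, in 0 of the 13 and in 1 of the 52. A match is a description of the letters and was not tested as a site. Shown here are the promoters of *Vgf*, for its cyclic AMP element, and of *Nfkbiz* and *Nfkbia*, an NF-kB cofactor and inhibitor on different sides of the class line. The motif is in capitals, and each run is 5′ to 3′ on the gene's strand and ends at the base before the start. In *Vgf* (chr12:25277021-25277270, minus strand) the motif begins 90 bases before the start, in *Nfkbiz* (chr11:58251471-58251720, plus strand) 12 bases before, and in *Nfkbia* (chr6:78597073-78597322, minus strand) 180 and 31 bases before, the nearer of which reads on the other strand.
Vgf: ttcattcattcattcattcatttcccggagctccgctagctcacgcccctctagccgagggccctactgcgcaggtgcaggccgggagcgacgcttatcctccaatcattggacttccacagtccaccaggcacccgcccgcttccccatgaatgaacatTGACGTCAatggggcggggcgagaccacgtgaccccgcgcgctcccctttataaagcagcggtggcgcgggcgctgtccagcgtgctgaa
Nfkbiz: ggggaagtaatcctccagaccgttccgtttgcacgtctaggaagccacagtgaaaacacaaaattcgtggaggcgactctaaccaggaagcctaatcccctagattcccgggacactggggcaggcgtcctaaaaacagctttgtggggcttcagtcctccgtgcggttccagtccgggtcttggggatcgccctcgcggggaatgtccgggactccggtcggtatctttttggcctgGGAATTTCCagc
Nfkbia: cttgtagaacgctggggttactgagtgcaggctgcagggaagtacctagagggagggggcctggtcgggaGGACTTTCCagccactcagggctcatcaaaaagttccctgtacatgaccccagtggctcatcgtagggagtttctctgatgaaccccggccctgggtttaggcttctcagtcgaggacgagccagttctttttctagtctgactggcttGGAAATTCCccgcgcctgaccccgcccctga

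The TKA-only transcript of lowest adjusted p was *Zfp36*, which encodes tristetraprolin, a protein that promotes decay of cytokine mRNAs. The naive group spanned 16.0 to 22.2 CPM around a median of 19.8, the sham group 13.7 to 34.1 around 20.03, and the TKA group 46.0 to 70.9 around 52.6. No TKA rat overlapped with a sham or naive rat. The first step was 0.18 ± 0.19 log2 units and the second 1.31 ± 0.19, the curvature had an unadjusted p of 0.0028, and the TKA-only coding gave 1.39 ± 0.15 with an adjusted p of 0.000265 by edgeR.

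*Ifitm3*, an interferon-induced membrane protein, and *Steap4*, a metalloreductase induced by cytokines, also kept all TKA rats above all others. *Ifitm3* had medians of 27.8, 34.9 and 63.7 CPM, with TKA rats from 45.5 to 78.0, steps of 0.14 ± 0.15 and 0.94 ± 0.15 log2 units, and an adjusted p of 0.000741 in the TKA-only coding of edgeR. *Steap4* had medians of 9.49, 11.8 and 23.9 CPM, and TKA rats from 19.6 to 82.8. In *Steap4*, 5 of the 6 sham rats also lay above all naive rats, and its first step was 0.36 ± 0.32 log2 units against a second of 1.78 ± 0.33. Without TKA rats 2 and 6 *Steap4* was stepwise, with steps of 0.35 and 0.86 and a slope of 0.59 ± 0.08 (adjusted p = 0.000468 by edgeR).

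*Nfkbia*, the inhibitor that holds NF-kB in the cytoplasm, was TKA-only too. Sham rats, at 20.1 to 30.4 CPM (median 24.9), were no higher than naive rats, at 26.5 to 32.0 (median 30.5), and TKA rats were at 36.2 to 93.3 (median 46.6). Its steps were -0.24 ± 0.18 and 1.08 ± 0.19 log2 units, with a curvature p of 0.00075 before adjustment. The graded trend missed it (adjusted p = 0.0598 by edgeR), while the TKA-only coding called it (adjusted p = 0.00647 by edgeR).

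The barrier and vessel transcripts *Cldn1* and *Apold1* were in the same class. *Cldn1*, a tight junction claudin of the perineurium, had medians of 13.7, 17.7 and 39.8 CPM, with all TKA rats, at 26.8 to 60.5, above the highest of the others at 22.5. *Apold1*, an immediate-early gene of endothelium, had medians of 6.15, 6.16 and 17.1 CPM, with TKA rats at 13.4 to 36.0 and the highest value in TKA rat 2. *Clec2g*, a C-type lectin transcript, had medians of 47.6, 46.9 and 74.1 CPM. *Twf1* and *Tubb6*, a twinfilin that binds actin and a beta-tubulin, had TKA-only codings of 0.60 ± 0.08 and 0.95 ± 0.13 (adjusted p = 0.00115 by edgeR for each). *Tubb6* sat close to the class line: sham rat 3 reached 33.4 CPM, above the lowest TKA rat at 32.5, and the transcript was TKA-only in 10 of the 18 fits with a rat left out, undetermined in 7 and stepwise in 1. *Zfp36*, *Ifitm3*, *Steap4*, *Apold1* and *Clec2g* were TKA-only in all 18 fits that left out 1 rat, and without TKA rats 2 and 6 together *Steap4* was not. *Twf1* was not called without TKA rat 2.

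Members of the glucocorticoid, clock and MAPK feedback lists were also in the class. *Klf15*, a glucocorticoid-induced transcription factor, had medians of 32.5, 27.9 and 49.9 CPM, and steps of -0.22 ± 0.22 and 1.11 ± 0.22 log2 units. It was not called without TKA rats 2 and 6. *Per1*, a clock gene that glucocorticoids also induce, had medians of 87.9, 71.1 and 129 CPM (TKA-only coding 0.66 ± 0.16, adjusted p = 0.0332 by edgeR), and was not called in any coding without TKA rat 2. *Dusp6*, a phosphatase that turns off ERK, had medians of 17.1, 17.9 and 34.3 CPM (TKA-only coding 0.83 ± 0.14, adjusted p = 0.00804 by edgeR). In the opposite direction, *Inhbb*, the beta-B subunit of activins and inhibins, stood at 26.5 to 40.7 CPM in naive rats and 28.1 to 41.4 in sham rats, and fell to 10.9 to 25.9 in TKA rats, all of them below every other rat (TKA-only coding -0.82 ± 0.15, adjusted p = 0.0118 by edgeR).

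**Figure D3:**
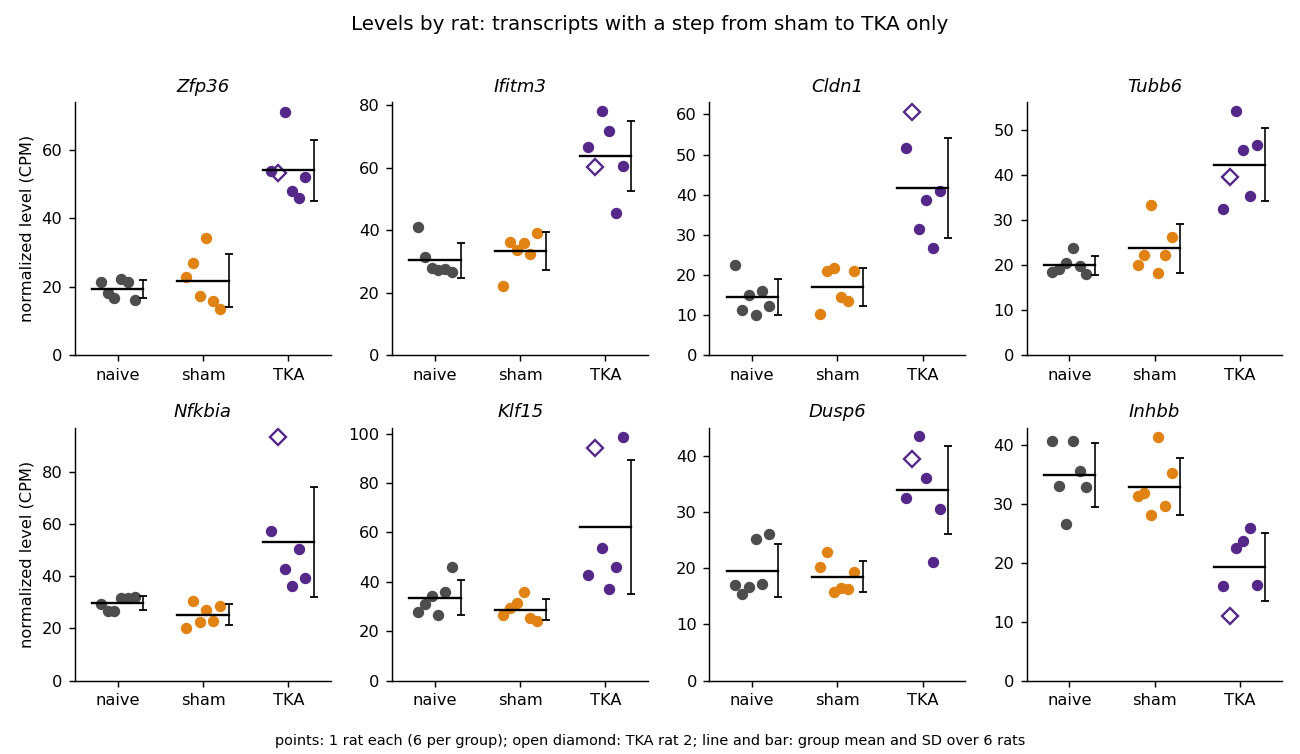
Normalized level in CPM on the y axis for each of the 18 rats, by group on the x axis, for 8 TKA-only transcripts; lines and bars are the mean and SD of 6 rats, and open diamonds are TKA rat 2. Naive and sham rats lie together in each panel, all 6 TKA rats lie above them for *Zfp36*, *Ifitm3*, *Cldn1* and *Nfkbia*, and all 6 lie below them for *Inhbb*.

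TKA rat 2 weighed differently on the classes. It was the highest of all rats in 31.2% of the stepwise transcripts, 51.4% of the TKA-only ones and 74.2% of the undetermined ones, against 23.9% of all tested. With it left out, 15 of the 16 stepwise transcripts were still called by the graded trend, 40 of the 70 TKA-only ones were called in some coding, and 83 of the 322 undetermined ones were. Of 64 graded calls with a slope over 1, 22 were called without it.

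The steepest risers were mostly muscle transcripts. *Myh7*, *Csrp3*, *Mb* and *Txlnb* encode sarcomere or muscle proteins, and with *Htr2b* they had the 5 largest slopes, between 3.24 and 3.72 log2 units per level. *Myh7*, the slow myosin heavy chain, had a median of 1.03 CPM in naive rats, 2.66 in sham rats and 81.8 in TKA rats, and TKA rat 2 reached 930. *Mb*, myoglobin, had medians of 0.828, 2.10 and 54.0 CPM and reached 691 in TKA rat 2. The lowest TKA rats, at 0.545 and 0.0834 CPM, lay within the naive range in both. Muscle is not a part of the ganglion, and the origin of these counts was not tested.

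The 19 falling transcripts of the graded trend ran in naive mean from 0.960 CPM for *Plg* to 174 for *Dlgap3*, a scaffold protein of synapses that was chosen after its values were seen. *Plg*, plasminogen, had a slope of -1.93 ± 0.47 (adjusted p = 0.0445 by edgeR) on means of 0.960, 0.523 and 0.0485 CPM, and was called in 2 of the 18 fits that left out a rat. *Pcdh8*, a protocadherin of synapses, stood at 8.92 to 15.4 CPM in naive rats, 3.11 to 13.5 in sham rats and 2.05 to 6.40 in TKA rats (slope -0.77 ± 0.17, adjusted p = 0.03 by edgeR). *Myh8*, the perinatal myosin heavy chain, kept all TKA rats, at 0.364 to 3.59 CPM, below all sham rats, at 4.46 to 6.45, and all naive rats, at 4.02 to 11.4 (slope -0.88 ± 0.19, adjusted p = 0.03 by edgeR). *Vwa5a* had means of 2.38, 0.848 and 0.476 CPM, with a first step of -1.48 ± 0.59 and a second of -0.82 ± 0.60 log2 units, and was called in 3 of those fits.

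The only plateau was *Epb41l1*, a membrane skeleton protein of neurons, with a first step of -3.70 ± 0.96 and a second of 0.21 ± 0.93 log2 units. Its first step rested on naive rats 1 and 2, at 17.6 and 6.29 CPM, since the other 4 naive rats were at 0.221 to 0.503 and within the range of sham and TKA rats. *Pak2*, a p21-activated kinase, was named for its high rank in the study's comparison of sham and naive rats. It was highest in sham rats and was called in no coding. Sham rats ranged from 0.641 to 8.92 CPM (median 4.30), against 0.142 to 0.929 in naive rats and 0.566 to 1.15 in TKA rats. It had the lowest curvature p of the named transcripts, 5.9e-06 before adjustment and 0.0951 after it by edgeR.

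Gene lists of the injured ganglion were counted by shape. Their members were chosen with earlier results of these data known, and the median slope of all 16048 tested transcripts was 0.01 log2 units per level. Only listed genes with a symbol could be counted, and symbols lean to transcripts that changed. A symbol was found for 21 of 31 cytokine and acute-phase genes and 18 of 20 glucocorticoid targets. It was found for 8 of 20 axon injury genes, 9 of 22 secreted neuronal factors and 5 of 19 sensory neuron markers. Of the 3242 tested transcripts with a symbol, 5.27% were called higher and 0.524% lower by the graded trend, 0.494% were stepwise, 2.0% TKA-only and 8.95% undetermined. The cytokine and acute-phase list had 21 tested members, of which 10 were called higher and 0 lower by the graded trend (1.18% and 0.118% of all tested transcripts), with a median slope of 0.64. Of these 21, 3 were stepwise (*Cebpd*, *Il1r1*, *Nfkbiz*), 7 TKA-only and 5 undetermined. *Socs3*, the feedback inhibitor of STAT3 signalling, was among the undetermined, with medians of 4.54, 7.46 and 16.4 CPM, a slope of 1.05 ± 0.17 and a first step of 0.64 ± 0.35 log2 units (trend adjusted p = 0.00868 by edgeR).

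Immediate-early and bZIP factors had 14 tested members, 7 called higher and 0 lower (5.27% and 0.524% of tested transcripts with a symbol), with a median slope of 0.48. *Nr4a2* and *Klf2* were stepwise, *Egr2*, *Maff* and *Btg2* TKA-only, and *Fos*, *Fosl2*, *Jun*, *Egr1*, *Ier2* and *Myc* undetermined. *Maff*, a small Maf protein, kept all TKA rats, at 11.1 to 14.3 CPM, above all others, with a first step of -0.21 ± 0.18 and a second of 0.89 ± 0.18 log2 units. *Myc* had medians of 1.83, 3.04 and 5.05 CPM, and its TKA rats also stood above all others (slope 0.87 ± 0.15, adjusted p = 0.00868 by edgeR). *Jun* had medians of 157, 217 and 254 CPM and lay at the threshold (slope 0.42 ± 0.11, adjusted p = 0.0499 by edgeR), with TKA rat 2 the lowest of all rats at 132.

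Axon injury and growth genes had 7 tested members, and 6 were called higher with a median slope of 0.54. Apart from *Tubb6* they were undetermined, among them *Gadd45a*, a DNA damage and stress gene with medians of 34.3, 48.1 and 76.1 CPM, and *Flrt3*, an axon guidance gene with medians of 24.7, 34.5 and 65.0 CPM. In the 18 fits that left out a rat, the graded trend called *Jun* in 2, *Csf1* in 7, *Gadd45a* in 10, *Flrt3* in 12, *Anxa1* in 13 and *Tubb6* in 18. Over all tested transcripts it called 1.18% higher and 0.118% lower, and among those with a symbol 5.27% and 0.524%. Of 8 secreted neuronal factors tested, *Vgf* and *Alkal2* were called higher and *Inhbb* lower. *Calca* and *Calcb*, which encode the pain peptides CGRP, had slopes of 0.05 and 0.08 log2 units and were not called.

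Glucocorticoid targets had 18 tested members, 4 called higher by the graded trend, 0 stepwise, 6 TKA-only and 4 undetermined. All tested transcripts gave 1.18%, 0.0997%, 0.436% and 2.01%, and those with a symbol 5.27%, 0.494%, 2.0% and 8.95%. The median first step of the 18 was -0.05 and the median second step 0.82 log2 units. The list summed to 1775 CPM in TKA rat 2 and 1542 in TKA rat 6, against 1027 to 1269 in the other 4 TKA rats. Without TKA rats 2 and 6, *Nfkbia* stayed TKA-only, whereas *Per1*, *Klf15*, *Errfi1*, *Sult1a1* and *Arrdc2* were not called. MAPK feedback inhibitors had 6 tested members, 2 called higher by the graded trend, with median steps of 0.03 and 0.72. The 7 circadian genes tested had 0 graded calls and 1 TKA-only member, *Per1*. The 6 interferon genes had 1 graded call, *Ifitm3*, and *Irf7* was not called, with a slope of -0.10.

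**Figure D4:**
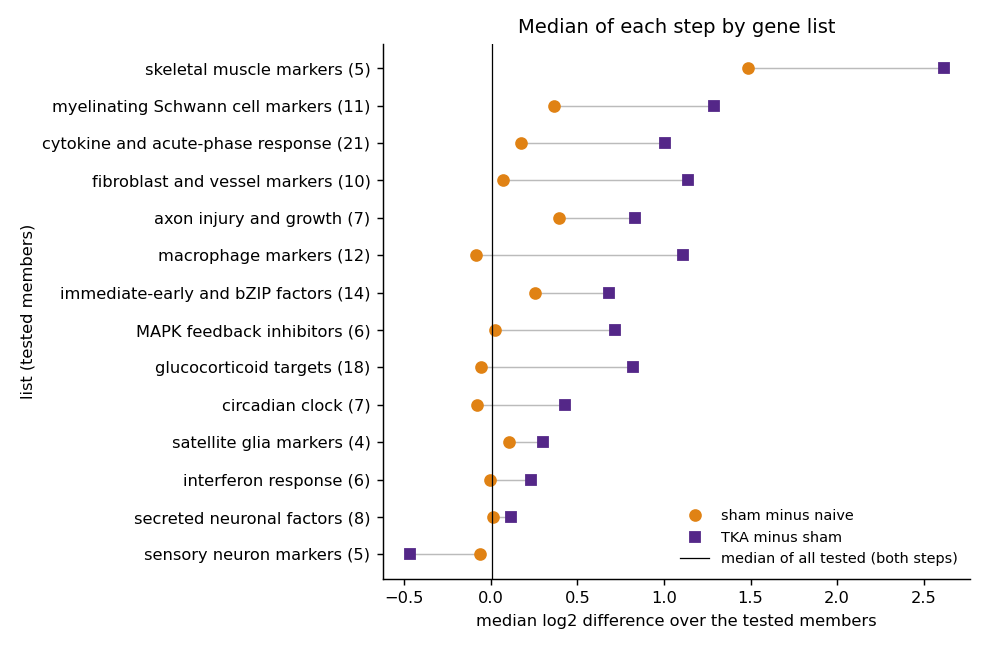
Median log2 difference over the tested members of 14 gene lists (number of tested members in parentheses), with sham minus naive as circles, TKA minus sham as squares, and the median of all tested transcripts as a vertical line. The second step is larger than the first in every list but the sensory neuron markers, and the first step lies below 0 for the glucocorticoid, circadian, macrophage, interferon and sensory neuron lists.

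Markers of the cell types of the ganglion were counted in the same way. Of all tested transcripts with a symbol, 5.27% were called higher by the graded trend, 2.0% were TKA-only and 8.95% undetermined. Of 11 tested myelinating Schwann cell markers, 3 were called higher by the graded trend, and by shape 8 were undetermined and 1 TKA-only, with a median slope of 0.81. Of 10 fibroblast and vessel markers, 5 were called higher by the graded trend, and by shape 0 were stepwise and 6 TKA-only, with *Dcn*, the proteoglycan decorin, at medians of 254, 244 and 417 CPM. Of 12 macrophage markers, 0 were called by the graded trend, and *C1qc*, a complement subunit, was TKA-only with medians of 14.8, 10.5 and 21.1 CPM but was not called in any coding without TKA rat 2. Of 5 sensory neuron markers, 0 were called, with a median slope of -0.27. When the neurofilament level of each rat was added to the fit, 39 transcripts were called by the graded trend, and *Cebpd* (0.78 ± 0.11), *Vgf* (1.11 ± 0.13), *Alkal2* (2.44 ± 0.44) and *Il1r1* (0.59 ± 0.12) remained stepwise at adjusted p values from 0.00102 to 0.0324 by edgeR. In that fit 10 of the 16 stepwise and 4 of the 70 TKA-only transcripts kept their class. *Bcl6*, *Nr4a2*, *Nos3*, *Nfkbiz*, *Klf2* and *Txlnb* were not called in it. Neither were 24 of the 27 named TKA-only transcripts, which were all but *Zfp36*, *Ifitm3* and *Tubb6*. The 24 included *Steap4*, *Apold1*, *Cldn1*, *Twf1*, *Clec2g*, *Nfkbia*, *Klf15*, *Per1*, *Dusp6*, *Maff*, *Egr2*, *Btg2*, *Dcn*, *C1qc* and *Inhbb*. The part of tissue content in these calls was not tested.

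The number of calls turned on single rats. Leaving out any naive rat gave 38 to 89 graded calls against 209, and leaving out TKA rat 6 gave 36. Leaving out TKA rat 2 gave 124, and sham rats 2, 3 and 6 gave 123, 120 and 126. Leaving out TKA rat 4 or TKA rat 5 gave 419 and 406. The TKA-only coding ran from 86 without TKA rat 6 to 652 without TKA rat 5. The stepwise class held between 10 and 27 transcripts throughout, and the TKA-only class between 31 and 139.

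**Figure D5:**
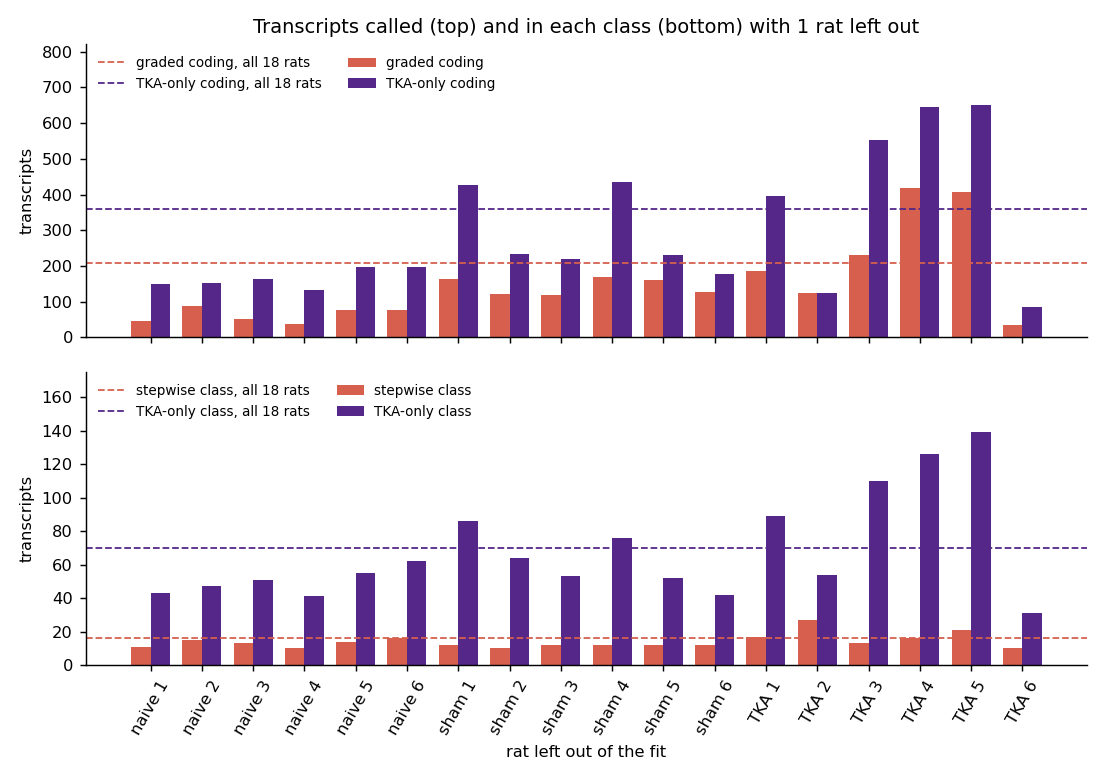
Number of transcripts on the y axis for each fit with the rat on the x axis left out, for calls by the graded and TKA-only codings (top) and for the stepwise and TKA-only classes (bottom); dashed lines are the fits with all 18 rats, at 209, 359, 16 and 70. In the upper panel, bars fall below the dashed lines for every naive rat and for TKA rat 6, and rise above them for TKA rats 4 and 5.

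A rank test of order gave a different balance of directions. The exact Jonckheere-Terpstra test (two-sided) called 302 of 14570 transcripts without ties (2.07%), 140 rising (0.961%) and 162 falling (1.11%). It called 13 of the 14 stepwise transcripts without ties. These had been selected for rising steps on the same counts, so this number is no separate support for them. The falling transcripts had small slopes, with a median of -0.26 log2 units per level, and 58 of the 162 had a fitted fold of at least 1.5. *Syt2*, a calcium sensor of synaptic vesicles, was among the first of them, with a slope of -0.27 ± 0.06, and was chosen after its values were seen. TKA rat 2 was the lowest of all rats in 131 of the 162, against 26.4% of all tested transcripts. Without TKA rat 2 the test called 47, 24 rising and 23 falling, and without TKA rats 2 and 6 it called 8.

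Slopes of rats labelled male and female were compared in an interaction test. The interaction of slope and sex gave 0 transcripts at an adjusted p under 0.05 by edgeR, 810 at an unadjusted p under 0.05 and a lowest adjusted p of 0.95. Without TKA rat 4, whose counts went against its label, it again gave 0, with 722 unadjusted.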

How the data were processed

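Per the labels, mRNA from left lumbar DRGs was sequenced as paired 150-base reads, and according to the methods and the submitters' processing notes the reads were aligned to rat genome rn6 with HISAT2 and counted per Ensembl transcript with featureCounts. Versions, annotation release and strand setting are not given in the sources used here. The authors deposited raw counts, 1 column per rat, with no normalization. Depth was 20230562 to 29343899 counts, and transcripts of few counts have the widest errors.

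Counts were analysed with edgeR 4.0.16 in R 4.3.3, with TMM scaling, filterByExpr (minimum count 10) and quasi-likelihood F tests with Benjamini-Hochberg adjustment over all 16048 transcripts tested. Levels are TMM-normalized CPM. Settings tried as alternatives included DESeq2 1.42.0 and limma 3.58.1. The scripts were tested on simulated counts. The members, lists and classes were chosen with earlier results of these data known. Symbols were available for 3242 tested transcripts, taken from the study's own lists, which lean to transcripts that changed, and 12806 went unnamed. Named transcripts were the 12 stepwise and 8 TKA-only ones of lowest adjusted p, all plateau ones, the 5 largest rises and falls, called list members, and *Ccl2*, *Alkal2*, *Vgf* and *Pak2*. Those listed by name ranked highest in the study's comparison of sham with naive rats, which were these same rats. Their sham levels are therefore no separate support. Same-numbered rats of different groups had correlated deviations over 0.1 in 2 of 18 pairs (mean r 0.04), so numbers were not taken as pairs. Transcripts of a gene share reads, and their split depends on the authors' counting. Some items are not reported here.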

Additional observations from a re-analysis of the deposited data

Results flagged for a closer look

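Of 264 sets of 6 rats examined for the named transcripts, 18 held a rat whose gap to its nearest neighbour was large for the range of its group (Dixon's test at 95%), where chance gives about 13.2, or 1 in 20. TKA rat 2 accounted for 7 of the 18, high in 3 and low in 4. On the log2 CPM scale it was low for *Vgf* (5.21, next rat 6.54), *Alkal2* (-3.52, next 4.93), *Ccl2* (-0.72, next 4.94) and *Myh8* (-1.15, next 0.84). It was high for the complement genes *C1qb* (5.68, next 4.35) and *C1qc* (5.67, next 4.52) and for *Glul*, glutamine synthetase of satellite glia (10.71, next 9.11).

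The other 11 values were in other rats. Among TKA rats, rat 3 was high for *Zfp36* (6.15, next 5.75), and rat 5 was low for *Timp1* (5.37, next 5.97) and *Col6a6* (2.93, next 3.92). Among sham rats, rat 4 was low for *Fam210b* (3.79, next 4.28) and *Smagp* (-1.90, next 1.07), rat 6 was low for *Nfkbiz* (-0.54, next 1.37), rat 1 was low for *Ifitm3* (4.47, next 5.03), and rat 5 was high for *Plg* (0.90, next -1.19). Among naive rats, rat 5 was low for *Vwa5a* (-0.99, next 0.92), and rat 4 was high for *Gadd45a* (5.62, next 5.12) and low for *Cdkn1a* (0.30, next 1.72). The causes of these values were not tested.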

How the results depend on the processing

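Counts of calls moved more than the named leaders did. With all rats, the graded trend called 209, the TKA-only coding 359 and TKA minus sham 13, and the stepwise, TKA-only and plateau classes held 16, 70 and 1. DESeq2 gave 664 graded, 665 TKA-only, 15 either-surgery, 4 sham minus naive, 184 TKA minus sham and 2 curvature calls, with 121 TKA-only and 6 plateau transcripts. Limma's voom with quality weights gave 144 TKA-only calls and classes of 29 stepwise and 44 TKA-only. Of those 29, 22 were rising. Under voom 9 of the 16 stepwise and 24 of the 70 TKA-only transcripts kept their class. Sex as a covariate gave 128 graded and 1 TKA minus sham calls. The neurofilament covariate gave 39 graded and 34 TKA-only calls and classes of 30 stepwise and 19 TKA-only. Without TKA rats 2 and 6 these were 76, 64, 33 and 30. Spacing of 0, 1, 3 gave 469 graded calls and 0, 2, 3 gave 6. Without a fold threshold the TKA-only coding gave 566 calls and its class 107. The plateau class was 0 under RLE scaling, no filter, a mean of at least 50 counts, voom, the robust fit, the sex and neurofilament covariates, the replicate block and without TKA rats 2 and 6. The rank trend, 302 with all rats, gave 47 without TKA rat 2, 8 without TKA rats 2 and 6 and 149 with a fold of 1.5 (settings chosen after the data were seen).

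A replicate block by rat number gave 18 graded, 87 TKA-only and 0 TKA minus sham calls, with classes of 10 stepwise and 45 TKA-only. With the block, 7 of the 16 stepwise and 33 of the 70 TKA-only transcripts kept their class. The numbers did not pair the rats. With each rat left out in turn, graded calls ran from 36 to 419, TKA-only coding calls from 86 to 652, TKA minus sham from 0 to 26, curvature from 0 to 1, either-surgery and sham minus naive both from 0 to 0, the stepwise class from 10 to 27, the TKA-only class from 31 to 139 and the plateau class from 0 to 1. The sex interaction stayed at 0 without TKA rat 4.

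Of the results for single transcripts, 1999 kept their direction and side of the threshold, 531 lost the call, 92 gained it and 10 changed sign. With the neurofilament covariate the naive-to-TKA log2 difference was -0.00158 for *Il6r*, -0.00541 for *Pmp22*, -0.17 for *Prx*, -0.0802 for *Pllp*, -0.14 for *Cldn19*, -0.0179 for *Mal*, -0.0911 for *Glul* and -0.26 for *Vwf*. *Pak2*, never called, was at -0.92 with spacing 0, 1, 3 and, with each rat left out, ran from -0.0187 (without naive rat 2) to 1.26. The causes of these changes were not tested.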
